A study of Mus musculus with 24 samples.

Results

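The late end of the course was examined by setting 4 arrays at 52, 54, 56 and 58 h after serum shock against 4 arrays at 44, 46, 48 and 50 h. All 8 came from MMH-D3 cells, a mouse hepatocyte line derived from livers carrying a truncated MET receptor, which had been grown to confluence, differentiated for 14 days in medium with 2% DMSO and then synchronised by serum shock. By their labels the windows differ only in time after the shock, and the whole course holds 24 arrays, one every 2 h between 12 and 58 h. Of 45037 probe sets outside the array controls, 18393 reached a log2 value of 5 or more on at least 4 of the 8 arrays and were compared; the other 26644 did not reach it. Of the probe sets compared, 17988 were at 5 or more on all 8 arrays, 2 passed only through the 52-58 h arrays and 5 only through the 44-50 h arrays. Each gene is given by its brightest probe set over the course, which left 9771 genes.

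Each time point has 1 array and nothing in the labels says that arrays came from separate cultures, so a p-value here measures the spread between arrays 2 h apart, which also holds any change within a window. The windows lie 8 h apart and therefore also differ in clock phase. The median log2 value of the compared probe sets was 9.11 to 9.13 at 52-58 h and 9.15 to 9.16 at 44-50 h, and the 3' minus 5' difference of the beta-actin control probe sets was 0.41 to 0.48 at 52-58 h and 0.39 to 0.51 at 44-50 h. The hepatocyte markers were present in part: Alb stood at 15.60 ± 0.09 at 52-58 h and 15.80 ± 0.18 at 44-50 h (SD, n = 4 each), and Ttr, Rbp4, Hnf4a, Fgb and Ahsg were present, whereas F2, Cps1, Cyp2e1 and Apoa2 lay at the lowest value of the array set, 2.17, in both windows. Of 6 bile duct markers on the array 4 were kept, with Krt19 at 15.18 and Krt7 at 12.30 at 52-58 h, while Cftr and Cldn4 lay at 2.17. Of 8 fetal liver and progenitor markers on the array 5 were kept, with Afp at 12.04 and Cd24a at 14.57 at 52-58 h. Dlk1, Gpc3 and Prom1 were not kept. None of 9 fibroblast and stellate markers and none of 6 endothelial markers was kept. Of 7 macrophage markers, Cd68, Csf1r and Cd14 were kept and Adgre1, Ptprc, Clec4f and Aif1 lay at 2.17. In a list of intestinal epithelial genes put together after the values were seen, 18 of 23 on the array were kept, among them Krt20, Cdh17, Lypd8 and Cdx2, while Lct and Cdx1 lay at 2.17.

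Serum shock sets the circadian oscillators of cultured cells to a common phase, after which the BMAL1 and CLOCK activators and their PER and CRY inhibitors run in opposite phase and drive output factors such as DBP and TEF. The integrated stress response is a separate programme in which amino acid shortage or other stress raises translation of the transcription factor ATF4, and ATF4 with its partners switches on amino acid transporters, serine and asparagine synthesis and tRNA charging enzymes. Earlier in this course, between 36-42 h and 44-50 h, that programme rose abruptly, and the question taken up here is which of those changes persisted, grew or reverted by 52-58 h.

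Few differences between 52-58 h and 44-50 h passed a test over all probe sets. limma called 1 of 18393 probe sets (0.00544%) at an adjusted p under 0.05, a probe set of Lpl, the lipase that releases fatty acids from circulating triglyceride. There were 0 calls after quantile normalization and 0 with a log2 of 5 or more required on all 8 arrays. At an unadjusted p under 0.05 there were 2067 probe sets (11.2%), 681 higher (3.7%) and 1386 lower (7.54%). The median size of the difference was 0.08 on the log2 scale, which is the same to 2 decimals as between 28-34 h and 20-26 h, the same clock hours a day earlier, and less than the 0.18 of the step from 36-42 h to 44-50 h. There were 60 probe sets (0.326%) that differed by at least 1, of which 54 were lower (0.294%), against 31 probe sets a day earlier. The late windows did not overlap for 194 genes that were higher (1.99%) and 533 that were lower (5.45%).

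**Figure D1:**
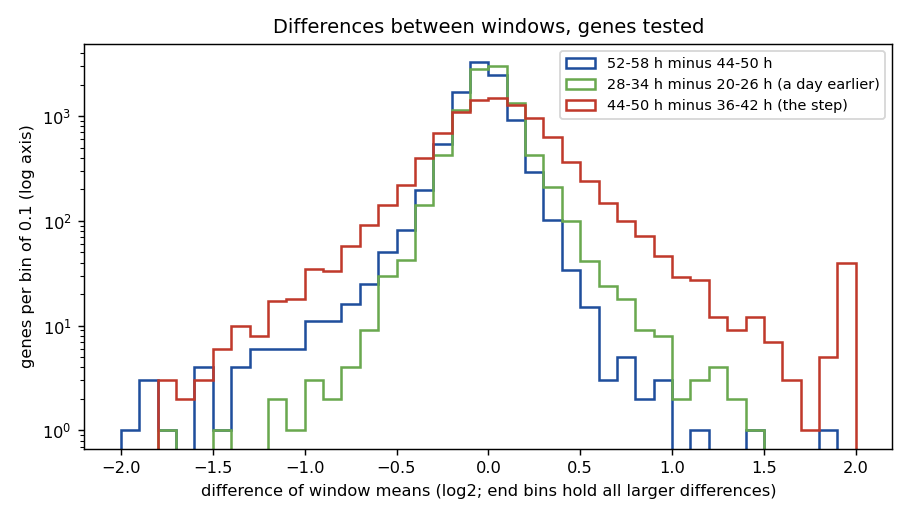
The number of genes in each 0.1-wide bin of the difference of window means (log2, horizontal axis) is drawn on a log axis for the late change, the same clock hours a day earlier and the step. The late change and the day earlier had the same median size over probe sets, 0.08, but 60 and 31 probe sets respectively differed by at least 1. The outline of the step is wider, with a median size of 0.18.

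The called Lpl probe set measured 5.06, 5.14, 5.36 and 5.39 at 52, 54, 56 and 58 h, against 3.12, 3.33, 3.14 and 3.33 at 44, 46, 48 and 50 h. All 4 late arrays stood above all 4 earlier ones, a difference of 2.01 ± 0.13 (SE, limma adjusted p = 0.000807). At the step its difference was 0.17 ± 0.22 (adjusted p = 0.625), and it was the only probe set in the class that changed late without a called step. The probe set is dim and passed the filter only through the 52-58 h arrays where it is high, so it had to differ and its test is no independent support. With no filter on log2 values the Lpl adjusted p was 0.0128 over 45037 probe sets, and after quantile normalization the difference was 1.73 ± 0.21 (adjusted p = 0.198). Its mean was 5.24 at 52-58 h, against 3.23 at 44-50 h. A brighter Lpl probe set, which was not kept, read 4.99, 6.23, 6.22 and 6.48 at 52-58 h, against 3.47, 4.24, 3.51 and 4.49 at 44-50 h. Early in the course, at 12-18 h, the brighter probe set had a mean of 5.24 and the called one 4.03. Both means lay above those at 44-50 h, 3.93 and 3.23. The called probe set also differed from its own change a day earlier, 0.40 ± 0.19, by 1.61 ± 0.25 (adjusted p = 0.041).

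The step largely held. Of 18393 probe sets, 2887 (15.7%) were called between 44-50 h and 36-42 h, and 383 of those had moved by at least 1, 287 upward and 96 downward. None of the 383 was called as growing further and none as reverting by 52-58 h, but both classes required a called late change. Only the Lpl probe set had one, without a called step, so both classes were bound to be empty. For 240 the late change was not called and its 95% interval stayed within 50% of the step, which is here called persistence; 201 of these had risen and 39 had fallen. The remaining 143 were undecided because their interval reached beyond that, by its width or by being shifted. Per2, with a step of 1.47 and a late change of -1.81 ± 0.31, was back near its 36-42 h level (-0.34 ± 0.39). Arntl (1.16, then 0.64 ± 0.18) and 2610528A11Rik (-1.06, then -1.51 ± 0.33) moved further in the direction of their step. None of these late changes was called. The step and the late change share the 44-50 h arrays, so the counts of these classes describe and test nothing. By gene, 203 steps of at least 1 comprised 120 that persisted (100 up, 20 down) and 83 undecided. Between 52-58 h and 28-34 h, a comparison at equal clock phase that shares no array with the step, 7671 probe sets (41.7%) were called, and of the 9771 genes 43.7% were. Among the 203 genes 195 were called in the direction of the step.

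Most integrated stress response genes that had risen at the step persisted. Of 33 kept genes on the list, 31 were called higher at the step (10.8% of all genes were), 26 by at least 1, and 25 of those 26 persisted; Stc2, a secreted glycoprotein, was undecided. The list was chosen with results of these data known. Its median difference was 2.00 at the step, -0.08 for the late change and 1.91 between 52-58 h and 36-42 h, against 0.04, -0.03 and 0.01 over all genes. No gene of the list was called in the late change, and the windows did not overlap for Chac1 and Pck2, both lower at 52-58 h, a share near the 5.45% of all genes.

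In the 250 bases before the annotated start, 7 of the 28 list genes with an entry in the RefSeq promoter table (GRCm38.p6) hold TGATGNAA, the composite element that ATF4 binds together with a C/EBP partner, on either strand. Among 8019 tested genes with an entry 182 hold it (2.27%), and over all 32851 promoters of the table the share is 3.45%. The windows of Chac1 (2:119350992-119351241, plus strand), Asns (6:7693210-7693459, minus strand) and Slc7a11 (3:50443614-50443863, minus strand) are shown because these genes hold the element and are described next; they run 5′ to 3′ along the gene, and capitals mark the matches.
Chac1: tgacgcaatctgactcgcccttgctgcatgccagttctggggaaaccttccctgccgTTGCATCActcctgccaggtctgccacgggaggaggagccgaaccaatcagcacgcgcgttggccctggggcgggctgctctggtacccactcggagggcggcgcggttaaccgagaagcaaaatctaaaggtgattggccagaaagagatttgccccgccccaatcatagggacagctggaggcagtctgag
Asns: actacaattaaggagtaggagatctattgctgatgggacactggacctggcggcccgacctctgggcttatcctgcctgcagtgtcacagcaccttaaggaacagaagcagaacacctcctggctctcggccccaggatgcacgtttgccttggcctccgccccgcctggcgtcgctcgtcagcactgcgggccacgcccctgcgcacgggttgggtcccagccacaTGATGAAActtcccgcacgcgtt
Slc7a11: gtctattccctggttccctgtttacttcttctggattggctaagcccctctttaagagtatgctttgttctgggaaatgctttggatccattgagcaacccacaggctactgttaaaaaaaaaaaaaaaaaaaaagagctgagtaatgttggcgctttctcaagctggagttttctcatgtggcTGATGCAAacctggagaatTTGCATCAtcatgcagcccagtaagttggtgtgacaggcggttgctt
A match of this kind describes the letters in the window and does not show binding.

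Chac1, which encodes an enzyme that degrades glutathione, measured 11.03, 10.79, 10.94 and 11.03 at 52-58 h, against 11.38, 11.63, 11.26 and 11.22 at 44-50 h. Its level before the step was 5.68, 5.68, 5.68 and 5.90 at 36-42 h. The late difference was -0.42 ± 0.10 (SE, limma adjusted p = 0.244), so the lower late values, although they did not overlap the earlier ones, took back little of a step of 5.64. Trib3, a pseudokinase that restrains ATF4, was also still high. It measured 11.28, 11.32, 11.34 and 11.31 at 52-58 h, against 10.82, 11.58, 11.41 and 11.27 at 44-50 h, with a late difference of 0.04 ± 0.14 (adjusted p = 0.935) after a step of 4.74. Asns, the asparagine synthetase, measured 13.03, 13.08, 13.06 and 13.13 at 52-58 h, against 12.93, 13.24, 13.18 and 13.22 at 44-50 h, and its windows overlapped, with a late difference of -0.07 ± 0.07 (adjusted p = 0.766).

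Transcription factors of the response also persisted. Atf3 measured 10.34, 10.19, 10.19 and 10.11 at 52-58 h, against 9.69, 10.82, 10.76 and 10.33 at 44-50 h, and Ddit3, which encodes CHOP, measured 12.04, 11.97, 11.93 and 12.02 at 52-58 h, against 11.94, 12.38, 12.26 and 12.01 at 44-50 h. In both genes the windows overlapped and the late arrays lay within the range of the earlier ones or at its edge. Atf4 itself had a step of 1.14 and a late difference of 0.12 ± 0.06. The transporters Slc7a11, Slc7a5 and Slc3a2 also kept most of their step. Slc7a11, the cystine importer, measured 8.56, 8.02, 7.72 and 7.64 at 52-58 h, against 7.07, 8.37, 8.37 and 8.27 at 44-50 h. It fell from array to array within the late window, and its low 44 h array enters the late difference of -0.04 ± 0.31. Its step was 4.40. Slc7a5 and its partner Slc3a2, which form the large neutral amino acid exchanger, had late differences of -0.25 ± 0.09 and -0.12 ± 0.10 after steps of 3.22 and 1.81.

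Enzymes of serine and one-carbon metabolism followed the same course. Phgdh, the entry enzyme of serine synthesis, measured 13.39, 13.31, 13.37 and 13.38 at 52-58 h, against 12.78, 13.56, 13.40 and 13.57 at 44-50 h, a late difference of 0.04 ± 0.15 after a step of 2.43. Aldh1l2, a mitochondrial folate enzyme, measured 8.87, 8.80, 8.74 and 8.71 at 52-58 h, against 6.44, 9.15, 8.59 and 9.19 at 44-50 h; it was still low at 44 h, which gives it a positive late difference of 0.44 ± 0.52 (adjusted p = 0.803) although its arrays from 46 h on overlapped. Among the cytosolic aminoacyl-tRNA synthetases, which charge tRNAs for translation, 14 of 19 genes were called higher at the step (10.8% of all genes). All 9 with a step of at least 1 persisted, against 70.4% of all genes with a step up of that size. The median late difference of the list was -0.11. Of the 15 mitochondrial synthetases kept, 2 were called higher at the step, a share near that of all genes.

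**Figure D2:**
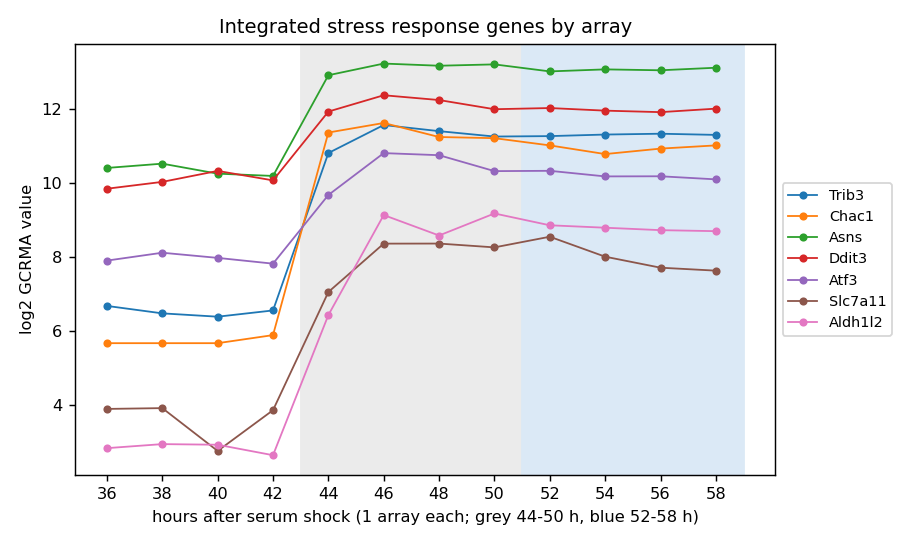
Log2 values of 7 integrated stress response genes on each array between 36 and 58 h. All 7 lines rise between 42 and 44 or 46 h and stay far above their 36-42 h values to 58 h; Chac1 stood between 10.79 and 11.63 over the last 8 arrays.

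Genes that fell at the step and stayed low came from other groups. The 20 such genes included Idi1, Nsdhl, Dhcr7 and Stard4 of the cholesterol list, Aurkb and Cenpf of the mitosis list, and Bnip3 and Ankrd37, which are known as hypoxia-induced genes. Aurkb, a mitotic kinase, measured 8.53, 8.54, 8.80 and 8.76 at 52-58 h, against 9.27, 8.61, 7.73 and 9.05 at 44-50 h. It had stood at 10.36, 10.17, 10.21 and 10.29 at 36-42 h. Mxd3, a MAX-binding repressor, had the largest such step, -1.78, with a late difference of -0.08 ± 0.19. These genes outside the naming rule were chosen after their values were seen.

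For many genes that rose at the step the 44 h array was the lowest of its window. Of 142 genes with a step up of at least 1 this held for 116. Cdsn, a corneodesmosome protein of skin, is the extreme: it measured 8.96, 8.56, 8.81 and 8.74 at 52-58 h, against 2.56, 9.02, 8.58 and 7.66 at 44-50 h, so the late difference of 1.81 ± 1.20 (adjusted p = 0.615) rests on 1 array. Car6, a secreted carbonic anhydrase, measured 6.96, 7.04, 7.07 and 6.92 at 52-58 h, against 2.21, 7.11, 6.65 and 7.47 at 44-50 h, and without the 44 h array its late difference was -0.08. Leaving out the 44 h array gave 543 steps of at least 1 with 380 persisting, against 383 and 240 with all arrays. Leaving out the 46 h array gave 267 steps, with 184 persisting and 83 undecided. No array left out gave a growing or a reverting probe set, but each of those fits called only 1 late change, so hardly any could appear.

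A linear change over the 8 arrays, fitted as an alternative to the difference of window means, called 33 probe sets (0.179%), 7 higher (0.0381%) and 26 lower (0.141%), which carry 28 gene symbols, 7 higher and 21 lower. By the brightest probe set of each gene 25 were called, 6 higher and 19 lower. Reg3b (-0.50 ± 0.06, adjusted p = 0.0265), Csf1 (-0.41 ± 0.06, adjusted p = 0.0331) and Bcas2 (0.72 ± 0.11, adjusted p = 0.046) were called on a dimmer probe set alone. All linear changes below are on the log2 scale per 8 h. The genes that fell included apolipoproteins, genes of intestinal epithelium, clock genes, Icam1 and Pmvk. The smallest adjusted p was that of 2610528A11Rik, which lay between 7.60 and 8.89 at 52-58 h, against 9.15 to 10.51 at 44-50 h, with a linear change of -1.55 ± 0.10 (SE, limma adjusted p = 0.000921). The other genes of the 19, not taken up in the paragraphs below, were AA467197, Teddm3, 2210407C18Rik, Sprr1a and 2010106E10Rik. A day earlier, 28-34 h minus 20-26 h, differences were also negative for the clock genes of the 19. The same held for 2210407C18Rik (-0.55 ± 0.32), Icam1 (-0.52 ± 0.12), Pmvk (-0.25 ± 0.13) and Tmigd1 (-0.02 ± 0.22). The others of the 19 had positive differences, from 0.02 ± 0.31 for 2610528A11Rik to 0.81 ± 0.53 for AA467197. Window means of 2210407C18Rik were 10.63 at 12-18 h, 9.41 at 28-34 h, 7.84 at 44-50 h and 6.85 at 52-58 h.

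Apoa1, the main protein of high-density lipoprotein, measured 12.19, 12.12, 11.35 and 11.16 at 52-58 h, against 13.72, 13.44, 13.73 and 11.92 at 44-50 h. Its first 3 arrays stood above all later ones, the 50 h array lay among the late values, and the 56 and 58 h arrays were lowest. Apoa1 fell by the linear test, with a change of -1.57 ± 0.21 (SE, limma adjusted p = 0.0331), while the window difference of -1.50 ± 0.41 did not pass (adjusted p = 0.269). Clca1, a secreted regulator of a chloride channel, measured 11.91, 11.50, 10.93 and 11.06 at 52-58 h, against 12.94, 12.68, 13.17 and 11.80 at 44-50 h and fell with a linear change of -1.28 ± 0.18 (adjusted p = 0.0331). Its relative Clca4a, the one of the pair whose windows did not overlap, fell with a linear change of -1.36 ± 0.15 (adjusted p = 0.0209). Apoc2, the activator of lipoprotein lipase, Alpi, the intestinal alkaline phosphatase, and Tmigd1 fell too, with linear changes of -1.20 ± 0.18, -0.94 ± 0.12 and -0.89 ± 0.13 (adjusted p = 0.0476, 0.0331 and 0.046).

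For Apoa1 and several others the break came between the 48 h and 50 h arrays, inside the earlier window, and 6 of the 19 genes with a linear fall were lower by at least 1 at 50 h. On single arrays, which allow no test, 115 genes were lower by at least 1 at 50 h than at 48 h, more than the 42 between 46 and 48 h or the 28 between 50 and 52 h. A similar number, 108, were lower by at least 1 at 40 h than at 38 h, before the step. For 62 of the 115 the mean of 52-58 h also lay at least 1 below the 48 h value. For 34 the 52-58 h mean was back within 0.5 of the 48 h value or above it. Among them Rab5b, an endosomal GTPase, measured 9.93, 9.71, 9.78 and 9.77 at 52-58 h, against 9.68, 9.58, 9.88 and 7.97 at 44-50 h. Rab5b was chosen after its values were seen. On the other side, Cyp2d26, a cytochrome P450, measured 7.19, 7.73, 6.06 and 6.26 at 52-58 h, against 9.55, 8.95, 9.81 and 6.90 at 44-50 h, and Fabp1, the liver fatty acid-binding protein, measured 6.61, 6.55, 4.69 and 5.61 at 52-58 h, against 8.73, 7.71, 8.26 and 5.79 at 44-50 h. Both had window differences that did not pass (-1.99 ± 0.62 and -1.76 ± 0.64, adjusted p = 0.304 and 0.361). Without the 50 h array these were -2.62 and -2.37, with adjusted p = 0.0765 and 0.0961, still not called.

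Apob, the structural protein of very low-density lipoprotein, went the other way on that array. It measured 9.86, 9.24, 8.37 and 8.61 at 52-58 h, against 8.80, 8.68, 8.99 and 11.76 at 44-50 h, so that 50 h was the highest of the 8, and its late difference was -0.54 ± 0.65 (adjusted p = 0.805), or 0.20 without the 50 h array. Of the 7 kept genes of the apolipoprotein list, 1 had a late difference above 0, and the list median was -1.06, against -0.03 over all genes. In the intestinal epithelial list all 18 kept genes had late differences below 0, with a median of -0.70, and 12 were lower by at least 1 at 50 h than at 48 h. Of all 9771 genes, 3858 had late differences above 0 and 115 were lower by at least 1 at 50 h. The list was put together after the values were seen and holds genes named above for their fall, such as Clca1 and Alpi. Its direction is therefore no independent support. In RNA from a whole culture, fewer cells of a type and less RNA per cell cannot be told apart.

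**Figure D3:**
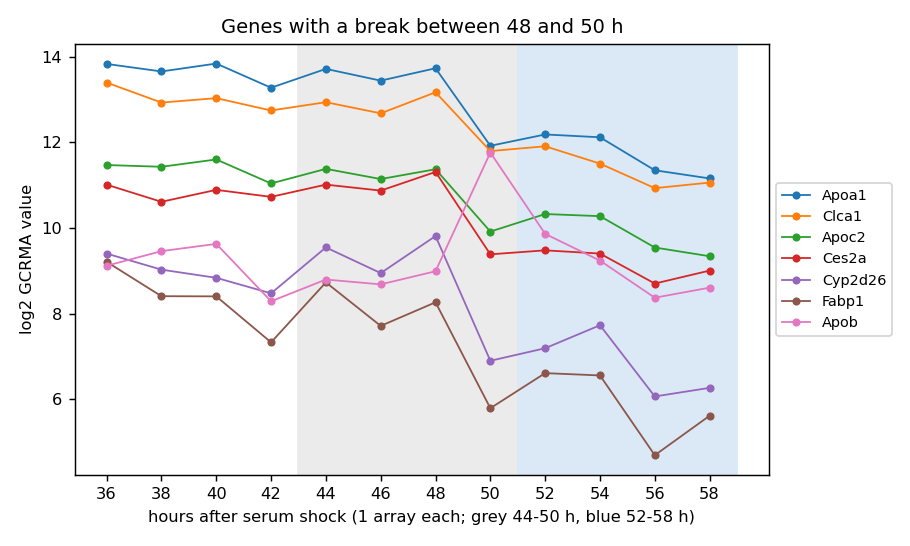
Log2 values of 7 genes on each array between 36 and 58 h. Apoa1, Clca1, Apoc2, Ces2a, Cyp2d26 and Fabp1 drop between 48 and 50 h and are lowest at 56 or 58 h, while Apob peaks at 50 h with 11.76.

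Fewer genes rose by the linear test than fell. Serpina7, the thyroxine-binding globulin, measured 11.61, 12.16, 11.87 and 12.06 at 52-58 h, against 10.70, 11.24, 11.11 and 11.28 at 44-50 h, and all 4 late arrays stood above the earlier ones. Its linear change was 0.77 ± 0.11 (adjusted p = 0.0331). Glrb, a glycine receptor subunit, rose with a linear change of 0.66 ± 0.10 (adjusted p = 0.0402), and Vnn1, a pantetheinase, rose with 0.30 ± 0.04 (adjusted p = 0.0331). The other 3 were Zfp800, Ranbp6 and Scpep1. Of Zfp800, 3 further probe sets gave late differences between -0.29 and -0.12 and another gave 0.15, against 0.57 ± 0.14 for the one used. A day earlier, 28-34 h minus 20-26 h, differences were also positive for Vnn1 (0.30 ± 0.07), Serpina7 (0.53 ± 0.10), Glrb (0.34 ± 0.13) and Scpep1 (0.14 ± 0.09). They were negative for Zfp800 (-0.09 ± 0.08) and Ranbp6 (-0.12 ± 0.09). Mmp13, a collagenase, had the largest late difference among genes at 5 or more with windows that did not overlap, 0.93 ± 0.33, and passed neither test (adjusted p = 0.358 and 0.146); it measured 11.95, 12.35, 12.17 and 12.30 at 52-58 h, against 10.07, 11.67, 11.76 and 11.55 at 44-50 h.

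The clock genes were compared with their own change a day earlier, which uses no array of the late windows. Of 27 kept core clock and clock output genes none was called by the window difference, 5 fell by the linear test (Per2, Cry2, Tef, Tspan4 and Tsc22d3), and 2 were higher and 8 lower without overlap between the windows, against 1.99% and 5.45% of all genes. Per2, the clock inhibitor, measured 7.29, 6.66, 5.79 and 5.80 at 52-58 h, against 8.23, 8.37, 8.26 and 7.93 at 44-50 h. The late arrays all lay below the earlier ones, with the 56 and 58 h arrays lowest, and Per2 fell with a linear change of -1.68 ± 0.19 (SE, limma adjusted p = 0.0225). The window difference was -1.81 ± 0.31, against -1.70 ± 0.48 between 28-34 h and 20-26 h.

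Dbp and Tef encode PAR bZIP output factors. Dbp measured 9.07, 9.22, 9.31 and 9.65 at 52-58 h, against 11.81, 10.78, 10.29 and 9.81 at 44-50 h, with a late difference of -1.36 ± 0.36 against -1.49 ± 0.44 a day earlier. Tef measured 8.65, 8.43, 8.52 and 8.63 at 52-58 h, against 10.07, 9.60, 9.27 and 9.0 at 44-50 h, with -0.93 ± 0.20 against -1.17 ± 0.22, and fell by the linear test (adjusted p = 0.046). Neither gene's windows overlapped, and both had their highest value at 44 h. Tef has 2 annotated starts, each with a CACGTG E-box, the element that BMAL1 and CLOCK bind, in the 250 bases before it; 6.02% of all promoters and 10.4% of those of tested genes hold one. The upstream window is 15:81802423-81802672 on the plus strand of GRCm38.p6 in the RefSeq table, with the match in capitals.
Tef: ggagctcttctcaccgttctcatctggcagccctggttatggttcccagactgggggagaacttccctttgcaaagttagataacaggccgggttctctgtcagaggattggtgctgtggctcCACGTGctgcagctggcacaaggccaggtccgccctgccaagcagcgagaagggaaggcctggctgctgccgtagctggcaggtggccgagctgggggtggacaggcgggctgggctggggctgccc
The element lies 127 bases before the start, and this describes the sequence alone.

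Arntl, which encodes BMAL1, ran opposite to these genes. It measured 9.22, 9.25, 9.10 and 9.30 at 52-58 h, against 8.0, 8.59, 8.75 and 8.96 at 44-50 h, so that its late arrays all lay above the earlier ones, with a late difference of 0.64 ± 0.18 (adjusted p = 0.269) against 0.96 ± 0.28 a day earlier. Cry2 measured 8.76, 8.66, 8.54 and 8.62 at 52-58 h, against 9.48, 9.20, 9.29 and 8.96 at 44-50 h and fell by the linear test (-0.54 ± 0.07, adjusted p = 0.0331). Tspan4, a tetraspanin among the outputs, fell with a linear change of -0.70 ± 0.06 (adjusted p = 0.00317). Cry1, Nfil3 and Lonrf3 belong to the genes whose step persisted: Nfil3, a bZIP repressor of D-box genes, measured 9.16, 9.15, 8.95 and 9.03 at 52-58 h, against 8.61, 9.19, 9.04 and 9.29 at 44-50 h, and its late difference was 0.04 ± 0.14. The step also spans a change of clock phase. Cry1 had a mean of 9.06 at 28-34 h and 7.13 at 36-42 h. At equal phase, 52-58 h minus 28-34 h, it differed by 0.20 ± 0.31 (limma adjusted p = 0.644). Nfil3 differed by 1.30 ± 0.10 and Lonrf3 by 0.59 ± 0.17.

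**Figure D4:**
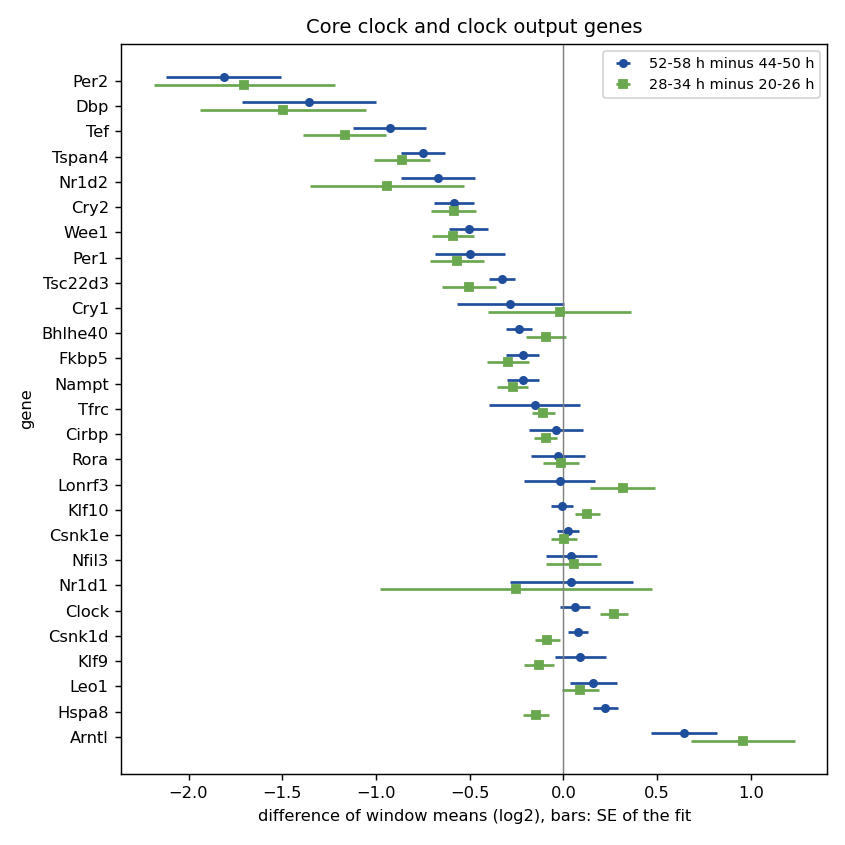
Differences of window means (log2, with SE of the fit) of the 27 kept clock genes, for 52-58 h minus 44-50 h and for 28-34 h minus 20-26 h. Per2 lies at -1.81 and -1.70, and Arntl is highest in both.

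Set directly against the day before, the late change differed for 5 of 18393 probe sets (0.0272%), 3 higher (0.0163%) and 2 lower (0.0109%), and for none of the 27 clock genes. S100a9, a calprotectin subunit, measured 8.33, 8.62, 8.31 and 8.26 at 52-58 h, against 7.58, 7.56, 7.82 and 7.88 at 44-50 h, with a late difference of 0.67 ± 0.11 against -1.02 ± 0.20 a day earlier, a difference of 1.69 ± 0.24 (SE, limma adjusted p = 0.037). Cox7a1, a cytochrome c oxidase subunit, had -0.64 ± 0.20 against 0.88 ± 0.11 (-1.52 ± 0.24, adjusted p = 0.041). Rbmx, an RNA-binding protein, the noncoding Cep83os and the Lpl probe set made up the rest. These calls are thin: leaving out 1 array at a time gave between 0 and 7, and in detail 0 without the 46, 48, 54, 56 or 58 h array, 1 without the 52 h array, 3 without the 44 h array and 7 without the 50 h array.

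Genes of cholesterol synthesis and uptake were lower again at 52-58 h, without a call in the window difference. All 21 kept genes had late differences below 0, with a median of -0.25 against -0.03 over all genes, and the windows did not overlap for 9, all lower (5.45% of all genes). From 36-42 h to 52-58 h, 20 of the 21 were called lower (14.9% of all genes), with a median of -1.21. Insig1, which retains the sterol-regulated activators in the endoplasmic reticulum, measured 8.56, 8.81, 8.53 and 8.72 at 52-58 h, against 9.62, 9.09, 9.26 and 9.06 at 44-50 h. It had stood at 10.59, 10.46, 10.39 and 10.38 at 36-42 h. Its late difference was -0.60 ± 0.13 (adjusted p = 0.234). Pmvk, the phosphomevalonate kinase, was the one gene of the list to fall by the linear test (-0.56 ± 0.07, adjusted p = 0.0331). Idi1, the isopentenyl diphosphate isomerase, measured 10.21, 10.43, 10.33 and 10.43 at 52-58 h, against 11.16, 10.52, 10.56 and 10.57 at 44-50 h; Hmgcs1, at the head of the pathway, had a late difference of -0.07 ± 0.09 with overlapping windows.

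Mitotic genes were lower at the end than before the step. All 27 kept genes were called lower at 52-58 h than at 36-42 h (14.9% of all genes), with a median difference of -0.98 against 0.01 over all genes. The late difference had a median of -0.05 and no gene was without overlap. All 27 had their lowest value of the 8 arrays at 48 h. Plk1, a mitotic kinase, measured 8.22, 7.91, 8.44 and 8.18 at 52-58 h, against 8.67, 8.11, 7.11 and 8.14 at 44-50 h, and Ccnb2, a mitotic cyclin, measured 9.61, 9.66, 10.07 and 9.77 at 52-58 h, against 10.79, 9.74, 8.76 and 9.92 at 44-50 h. In both, the 48 h array stood below all the others and 44 h above. Of 136 genes higher by at least 1 at 50 h than at 48 h, 113 were lowest of the 8 arrays at 48 h. Those genes were picked by a 48 h value below that at 50 h, which favours a lowest value at 48 h. The count is therefore no independent support. With 1 array per time point, a change in the cells at 48 h and a property of that array cannot be told apart, and the same holds for the break at 50 h.

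**Figure D5:**
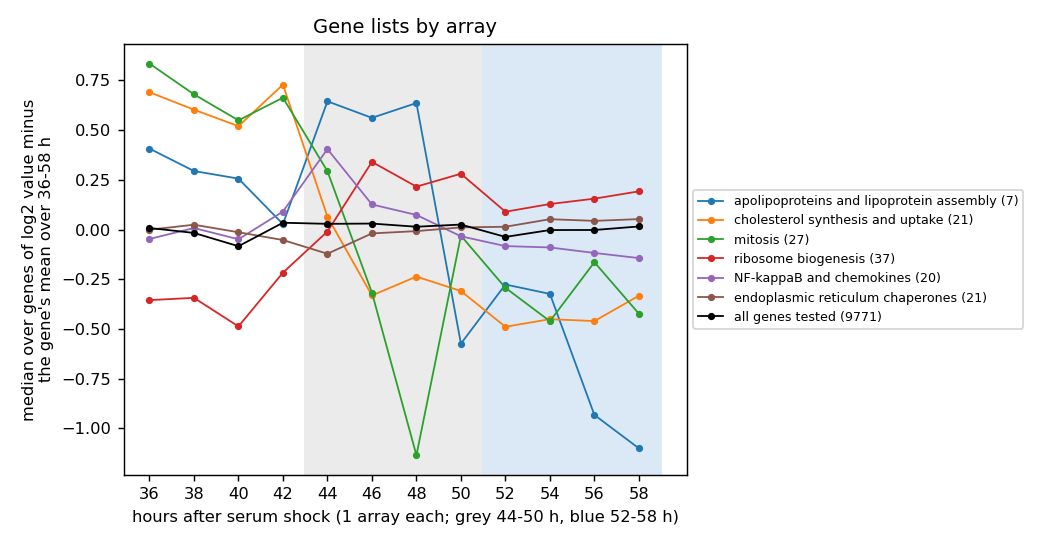
Median over the genes of a list of the log2 value minus the gene's own mean over 36 to 58 h, by array, with the number of genes in brackets. The apolipoprotein line drops from 48 to 50 h and again at 56 h, the mitosis line has its low point, -1.13, at 48 h, and the line of all genes stays near 0.

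NF-kappaB targets and chemokines had mostly negative late differences. The list median was -0.29 over 20 kept genes, 1 of which was above 0, and the windows did not overlap for 5, all lower (5.45% of all genes): Icam1, Birc3, Tnfaip3, Csf1 and Cxcl2. Icam1, a leukocyte adhesion molecule, measured 6.15, 6.29, 5.84 and 5.87 at 52-58 h, against 7.75, 6.93, 6.73 and 6.68 at 44-50 h and fell by the linear test (-0.98 ± 0.13, adjusted p = 0.0331). Its window difference was -0.99 ± 0.23, against -0.52 ± 0.12 between 28-34 h and 20-26 h. Birc3, an inhibitor of apoptosis, measured 8.07, 8.09, 7.90 and 7.99 at 52-58 h, against 8.91, 8.43, 8.53 and 8.51 at 44-50 h, a difference of -0.58 ± 0.11 (adjusted p = 0.231). In all 5 the 44 h array was the highest of the 8. Of the macrophage markers, Cd68 measured 5.78, 5.91, 5.96 and 5.88 at 52-58 h, against 7.37, 6.35, 6.34 and 6.37 at 44-50 h. Csf1r hardly moved, with means of 5.33 at 52-58 h and 5.34 at 44-50 h, and those of Cd14 were 14.64 and 14.76. Ptprc, Adgre1, Clec4f and Aif1 lay at 2.17. The part of the macrophage markers in the differences of the NF-kappaB list was not tested.

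Protein-folding and biosynthesis lists had late medians near 0. Of 21 endoplasmic reticulum chaperones 17 had late differences above 0, with a median of 0.04 and 3 genes higher without overlap (1.99% of all genes). Calr, calreticulin, measured 14.04, 13.94, 14.03 and 14.02 at 52-58 h, against 13.84, 13.67, 13.90 and 13.91 at 44-50 h, and the largest late difference of the list was its 0.18 ± 0.06 (adjusted p = 0.314). Of the ribosome biogenesis genes, 31 of 37 were called higher at 52-58 h than at 36-42 h (15.2% of all genes), with a median late difference of -0.05. Cytosolic ribosomal proteins (39 genes), oxidative phosphorylation (57) and the proteasome (34) had median late differences of 0.00, -0.02 and 0.01.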

How the data were processed

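The authors deposited log2 expression values for 24 mouse Affymetrix arrays, and GCRMA is named as the tool per the submitters' processing notes; its version is not given in the sources used here. GCRMA models background from probe sequence and normalizes across arrays, so dim probe sets pile up at a common low value and their differences are poorly resolved. Precision is set by how few arrays there are.

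Arrays were put in windows of 4 by the time in their labels. Probe sets with log2 of 5 or more on at least 4 of the 8 arrays were kept, controls aside, and named from the platform annotation updated through RefSeq. limma 3.58.1 in R 4.3.3 (lmFit, eBayes with an intensity trend) fitted the window means, with Benjamini-Hochberg adjustment over all 18393 kept probe sets and calls at 0.05; tables and figures used Python 3.11.15, pandas 2.3.3 and NumPy 2.4.6. The late change, the step and the change from 36-42 h to 52-58 h were each fitted on the 8 arrays of their own windows. The classes of step drew on 12 arrays and the comparison with the day before used 16. The fit was tested on simulated data with independent noise on each array. Those data held no drift within a window and no effect shared by the genes of an array, so that test does not cover either. Since both windows were normalized together and differ by consecutive times, drift within a window widens the error.

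The members and gene lists were chosen with earlier results of these data known, and the intestinal list after the values were seen. Genes were named by rule: the 12 largest rises and falls among called genes whose windows did not overlap, 5 each among called genes dim in 1 window, up to 3 called genes of each list, all kept clock genes, and the 5 largest of each class of step. That rule gave few names because 1 probe set was called, so further genes were named after their values were seen: those of the linear change, of the break at 50 h, of the lists and of the stress response other than the 5 largest. Promoters were searched on both strands for CACGTG, for TTANGTAA, for AGGTCA, for TGATGNAA, for TGACNNNGC, for CCAAT, for TTTGGCGC, for TTTCCCGC, for CATTCC, for GAANNTTC and for CCACG; matches to the last can overlap the first. Alternatives were the filter, the normalization, the prior, all 24 arrays in 1 fit, other probe sets, a linear change, other sizes of step and each array left out; leaving out the 40 and 42 h arrays was chosen after seeing the data.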

Additional observations from a re-analysis of the deposited data

Results flagged for a closer look

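In windows of 4 arrays, 1 value can stand apart from the other 3 by more than Dixon's critical ratio. Of 174 windows of named genes checked, 20 had such a value, and chance gives about 1 in 20 windows. Many of these genes were chosen after their values were seen, some for their 44 or 50 h array, so the share of 20 in 174 cannot be read against chance. The array at 44 h held 8 of them, that at 50 h 5, that at 52 h 4, and those at 54, 56 and 58 h 1 each. At 44 h the values were 10.19 for Klf9, 7.07 for Slc7a11, 10.07 for Mmp13, 11.16 for Idi1, 11.12 for Tnfaip3, 7.35 for Rbmx, 2.21 for Car6 and 4.56 for Angptl6. At 50 h they were 8.54 for Zfp800, 11.92 for Apoa1, 9.92 for Apoc2, 11.76 for Apob and 10.16 for Alpi. In the later window they were 12.10 for Tspan4, 8.43 for Glrb, 13.38 for Scpep1 and 10.94 for Csf1 at 52 h, 12.07 for Bhlhe40 at 54 h, 8.11 for Aurka at 56 h and 10.23 for Csnk1e at 58 h.

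The late change differed from the change at the same clock hours a day earlier by the limma interaction for 5 genes. The difference of the changes was 1.69 for S100a9 (adjusted p = 0.037), 1.61 for Lpl (0.041, on the probe set that passed the filter only through the later window), 0.78 for Rbmx (0.0444), -1.04 for Cep83os (0.037) and -1.52 for Cox7a1 (0.041).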

How the results depend on the processing

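The late change gave 1 call with each array left out in turn, but there were 0 calls with log2 of 5 or more required on all 8 arrays, where the Lpl probe set is not tested, and 0 with quantile normalization, against 2067 probe sets at an unadjusted p under 0.05 in the reported fit. The linear change called 33 probe sets, 19 named genes and 9 genes of the lists. Steps of at least 0.5 gave 714 persisting and 855 undecided probe sets, and steps of at least 2 gave 50 and 12. Without the 40 and 42 h arrays the step called 1313 probe sets and left 50 undecided. With 1 array left out, persisting probe sets numbered 184 to 380, undecided ones 83 to 175, and calls against the day before 0 to 7. On another probe set of the gene, the sign turned for Csnk1d (-0.11), Csnk1d (-0.0503), Csnk1e (-0.0143), Lonrf3 (0.00174), Trib3 (-0.0688), Zfp800 (-0.12), Zfp800 (-0.29), Zfp800 (-0.16), Idi1 (0.0107), Ddit3 (0.53), Stc2 (0.0769). As a linear change per 8 h, the sign turned for Csnk1e (-0.0065), Nr1d1 (-0.14), Klf10 (0.0174), Slc7a11 (0.000567), Asns (0.00124). With arrays centred on their median, the sign turned for Rora (0.000491), Klf10 (0.022), Lonrf3 (0.0104), Ccnb2 (0.0114). With quantile normalization, the sign turned for Klf10 (0.00966), Lonrf3 (0.0241), Slc7a11 (0.0114), Ccnb2 (0.00074). Leaving out 1 array turned the sign for some arrays in Nr1d1 (-0.27 to 0.33), Rora (-0.16 to 0.0574), Cirbp (-0.16 to 0.054), Klf10 (-0.039 to 0.0382), Klf9 (-0.0538 to 0.15), Lonrf3 (-0.18 to 0.0949), Nfil3 (-0.10 to 0.13), Tfrc (-0.34 to 0.0753), Aldh1l2 (-0.20 to 0.72), Trib3 (-0.11 to 0.15), Slc7a11 (-0.35 to 0.0828), Stbd1 (-0.24 to 0.28), Apob (-0.83 to 0.20), Phgdh (-0.14 to 0.12), Cdk1 (-0.31 to 0.0813), Plk1 (-0.12 to 0.40), Ccnb2 (-0.37 to 0.31), Bub1b (-0.22 to 0.39), Aurka (-0.37 to 0.17), Car6 (-0.0796 to 1.67), Angptl6 (-0.0541 to 1.10). The cause was not tested.

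No paired analysis was possible because the labels give no replicate numbers shared between the windows. With 1 array per time point, time within a window and array cannot be told apart. Probe sets near the low end of the scale, such as that of Lpl, are close to background.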
